A study of Mus musculus with 6 samples.

Results

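Genes of DNA replication and cell division were followed in transplanted mouse hearts. The set was a fixed list of 33 genes: 11 replication genes, 19 genes of mitosis and its onset, and 3 regulators of entry into S phase (Ccne1, Ccne2 and E2f1), kept apart here because they act before both other groups. Of the 33 genes, 31 had a probe set that names no other gene, with 56 such probe sets in all, among 12393 genes and 20380 single-gene probe sets on the array. Probe sets were present for all 11 replication genes, 17 mitosis genes and the 3 regulators. Tyms, a replication gene, was at the lower limit set for the signals on all 6 arrays and is counted among the 11 with a difference of 0. Ccnb1 and Cdca8 had no such probe set, so they have no signal here and enter the promoter counts only. Total RNA from 6 groups was hybridised to 1 Affymetrix array each: an untreated cardiac syngraft, which is a transplant with no donor-recipient difference; an untreated cardiac allograft, which is transplanted across such a difference; and 4 allografts from treated mice. The treatments were BH4 (tetrahydrobiopterin, the cofactor of nitric oxide synthases) and ABH4 (its 4-amino analog), each at 50 mg/kg every 8 h, NIL (N-imino ethyl-L-lysine, an inhibitor of inducible nitric oxide synthase) at 5 mg/kg every 8 h, and CsA (cyclosporin A, a calcineurin inhibitor that blocks T cell activation) at 15 mg/kg every 24 h. Strain, age, day of removal and any pooling of grafts are not given in the sources used here. With 1 array per group no difference has a replicate check, no test was possible, and every statement below describes these arrays.

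DNA replication starts when the hexameric MCM helicase (Mcm2 to Mcm7), loaded on origins during G1, is activated at the entry into S phase. Pcna then clamps the polymerases to DNA, while ribonucleotide reductase (Rrm1 with Rrm2), thymidine kinase (Tk1) and thymidylate synthase (Tyms) supply the nucleotides. Later, Cdk1 with A- and B-type cyclins drives the cell into mitosis, kinases and checkpoint proteins order the chromosomes on the spindle, and Cdc20 starts their separation. Transcription of the first group peaks around S phase under E2F factors. The second peaks in G2 and M under complexes that bind the cell cycle genes homology region, called CHR. Adult cardiomyocytes rarely divide, whereas activated lymphocytes, macrophages, fibroblasts and endothelial cells can.

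The promoters below are shown because the motifs tied to these factors were distributed differently over the replication and mitosis genes. Each runs from 250 bases before to 50 bases after the start (RefSeq, GRCm38.p6), and 28 of the 33 genes were in the promoter table. Searched on both strands were the E2F-type motif (TTCCCGC or TTCGCGC or TTGGCGC or TTGCCGC), the CHR-type motif (TTTGAA or TTCGAA) and the pentamer CCAAT, the box that NF-Y binds. Matches are in capitals, and neighbouring matches can overlap. Rrm2, Mcm5, Mcm2 and Mcm7 are the genes with each motif that stood furthest above the syngraft in the untreated allograft. Bub1b and Mki67, chosen after their values were seen, are the mitosis genes with a CHR-type match that did so.
Rrm2 promoter, chr12:24708004-24708303, plus strand: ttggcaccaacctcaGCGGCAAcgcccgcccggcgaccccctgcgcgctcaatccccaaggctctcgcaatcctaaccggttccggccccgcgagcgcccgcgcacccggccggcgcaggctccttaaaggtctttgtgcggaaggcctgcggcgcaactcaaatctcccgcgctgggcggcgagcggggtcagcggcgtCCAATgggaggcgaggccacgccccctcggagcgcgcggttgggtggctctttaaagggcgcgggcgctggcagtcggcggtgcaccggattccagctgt
Mcm5 promoter, chr8:75109259-75109558, plus strand: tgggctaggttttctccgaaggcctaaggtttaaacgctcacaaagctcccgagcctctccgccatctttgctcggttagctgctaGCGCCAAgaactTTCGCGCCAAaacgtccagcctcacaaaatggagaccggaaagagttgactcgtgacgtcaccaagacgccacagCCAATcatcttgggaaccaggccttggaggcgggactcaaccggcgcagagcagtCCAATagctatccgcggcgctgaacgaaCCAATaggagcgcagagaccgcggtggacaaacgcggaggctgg
Mcm2 promoter, chr6:88898731-88899030, minus strand: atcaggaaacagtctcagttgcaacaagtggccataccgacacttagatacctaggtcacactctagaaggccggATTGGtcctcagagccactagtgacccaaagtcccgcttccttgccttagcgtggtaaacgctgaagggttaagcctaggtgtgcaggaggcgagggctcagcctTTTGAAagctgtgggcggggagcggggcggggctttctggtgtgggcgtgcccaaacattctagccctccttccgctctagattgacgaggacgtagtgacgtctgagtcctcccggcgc
Mcm7 promoter, chr5:138171834-138172133, minus strand: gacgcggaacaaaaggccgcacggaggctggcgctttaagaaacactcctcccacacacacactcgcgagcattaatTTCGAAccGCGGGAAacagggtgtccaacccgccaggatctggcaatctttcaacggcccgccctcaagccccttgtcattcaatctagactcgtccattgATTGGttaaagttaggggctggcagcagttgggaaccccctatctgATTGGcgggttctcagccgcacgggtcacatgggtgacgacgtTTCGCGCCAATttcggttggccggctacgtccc
Bub1b promoter, chr2:118597961-118598260, plus strand: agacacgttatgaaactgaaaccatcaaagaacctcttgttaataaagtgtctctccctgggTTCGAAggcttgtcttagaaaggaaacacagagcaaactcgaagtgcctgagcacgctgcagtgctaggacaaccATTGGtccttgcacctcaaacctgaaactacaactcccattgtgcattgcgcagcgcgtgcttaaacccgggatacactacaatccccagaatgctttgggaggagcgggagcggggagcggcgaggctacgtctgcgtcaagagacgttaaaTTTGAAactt
Mki67 promoter, chr7:135716330-135716629, minus strand: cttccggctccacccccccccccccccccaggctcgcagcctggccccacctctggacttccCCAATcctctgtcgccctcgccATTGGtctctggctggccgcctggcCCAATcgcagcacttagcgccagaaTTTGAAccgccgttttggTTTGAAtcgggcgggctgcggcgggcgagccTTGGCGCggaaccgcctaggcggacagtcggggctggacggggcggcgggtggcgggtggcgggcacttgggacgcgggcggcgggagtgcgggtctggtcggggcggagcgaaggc

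An E2F-type match was present in 6 of 10 replication genes and 3 of 16 mitosis genes, where 9.57% of all 32851 windows of this length held it. A CHR-type match was present in 2 of 10 replication genes and 12 of 16 mitosis genes, against 19.2% of all windows. CCAAT was present in 8 of 10 and 13 of 16, against 37.4%. All 12 mitosis genes with a CHR-type match also held CCAAT. In 11 of the 12 the CHR-type match nearest to the start began within 50 bases of it, and in Mki67 it began 98 bases before it. Both replication genes with a CHR-type match carried it more than 50 bases before the start, Mcm2 at 70 bases and Mcm7 at 173 bases. Tk1, Tyms, Birc5, Nusap1, Mad2l1, Ccne1 and E2f1 held none of the 3 motifs in this window. A match is a run of letters and not a measured binding site, and no array value here bears on binding.

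**Figure D1:**
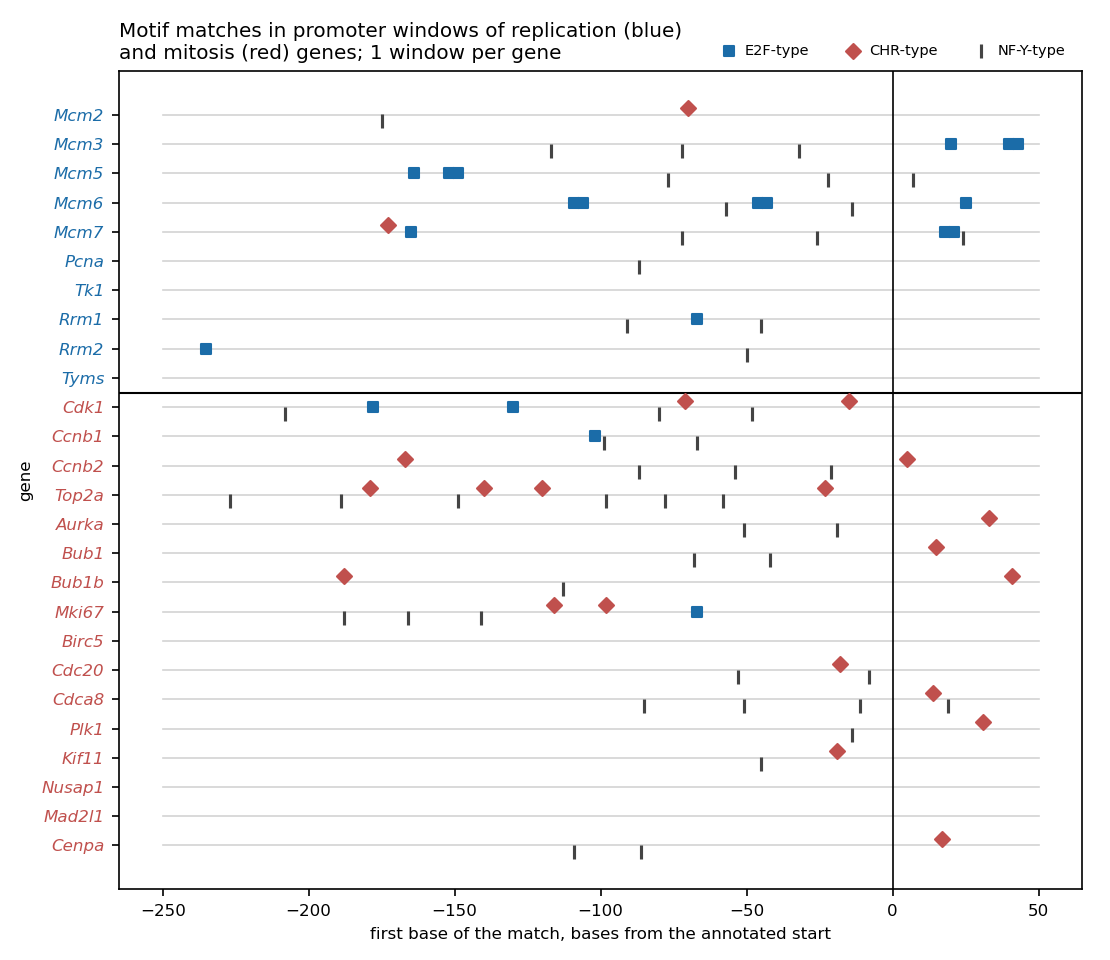
Motif matches in the promoter windows of 10 replication genes (blue names) and 16 mitosis genes (red names), with the first base of each match on the horizontal axis in bases from the annotated start, for 1 window per gene. Squares are E2F-type, diamonds CHR-type and bars NF-Y-type matches; diamonds lie in 12 mitosis genes and 2 replication genes, squares in 3 and 6.

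Signals below are rescaled so that all arrays share the same median, and are set to a floor of 34.8 where lower; a gene takes its brightest probe set. A gene is counted as higher or lower when 2 arrays differ at least 1.5-fold, and a fold against an array at the floor is a lower bound. Fewer dividing cells and less RNA per cell cannot be told apart in these bulk samples. Apart from the sums of cell type markers below, signals are compared between arrays for the same gene and never between genes. Those sums add signals of different genes, so genes with bright probe sets weigh most in them. Arrays had median deposited signals of 77.6 to 88.5, and highest signals of 8819 to 10669.1. Defining markers of heart muscle were above the floor on every array. Of 14 measured T cell markers 10 were at the floor in the syngraft and 2, Cd4 and Bcl11b, on all arrays.

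In the untreated allograft, replication genes were higher than in the syngraft by a median of 1.0 on the log2 scale (2.0-fold), against 0.34 for mitosis genes and 0.00 for all genes. By 1.5-fold or more, 8 of 11 replication genes were higher and 0 lower, and of 17 mitosis genes 6 were higher and 0 lower. Over all 31 members 15 were higher and 1 was lower, where 15.4% of all genes were higher and 11.9% lower by this measure. All 6 helicase subunits were among the higher genes. The median difference of replication genes exceeded that of mitosis genes by 0.66, and the 2 groups overlapped. On the deposited values the replication median was 0.81 and the mitosis median 0.15, and 12 members were higher, where 10.9% of all genes were. After quantile normalization the medians were 0.87 and 0.33, again with 12 members higher, where 12.3% of all genes were. Mcm4, Mki67 and Top2a fell short of 1.5-fold under both. On the log2 scale Mcm4 had 0.48 and 0.51, Mki67 0.56 and 0.58, and Top2a 0.44 and 0.44.

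The helicase subunits differed most on the Mcm2 and Mcm5 probe sets. Mcm5 had signals of 82.3 in the syngraft, 256 in the untreated allograft, 112 with CsA, 214 with BH4, 273 with ABH4 and 195 with NIL, which makes the untreated allograft 3.11-fold higher than the syngraft. Mcm2 had 89.7 in the syngraft, 276 in the untreated allograft, 128 with CsA, 307 with BH4, 503 with ABH4 and 460 with NIL, 3.08-fold higher without treatment. Both genes were lowest in the syngraft, next with CsA, and higher on the other 4 arrays. The other Mcm2 probe set spanned a smaller range, from 103 in the syngraft to 152 in the untreated allograft, 149 with CsA, 194 with BH4, 200 with ABH4 and 143 with NIL. There NIL, and not CsA, came next above the syngraft. The size of the Mcm2 difference and the place of CsA therefore depended on the probe set, although both probe sets were higher in the allograft.

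Mcm7 had signals of 270 in the syngraft, 588 in the untreated allograft, 296 with CsA, 529 with BH4, 655 with ABH4 and 549 with NIL, 2.18-fold higher without treatment than in the syngraft. Mcm6 had 175, 375, 251, 287, 418 and 436 in the same order, 2.14-fold higher. Mcm3 had 113, 223, 139, 222, 263 and 189, 1.97-fold higher. On their brightest probe sets these subunits kept the order of Mcm5 at the lower end, with syngraft lowest and CsA next. Not all their other probe sets did. For Mcm7 these had 157 in the syngraft and 149 with CsA, 48.6 and 47.9, and in the other direction 101 and 113. A weak Mcm3 probe set had its highest signal with CsA, at 47.3. Mcm4 had 158, 250, 124, 174, 300 and 229, and was the helicase subunit whose CsA value lay below the syngraft on the brightest probe set. It was 1.58-fold higher in the untreated allograft than in the syngraft.

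Around the fork, the clamp Pcna had signals of 838 in the syngraft, 1673 in the untreated allograft, 1030 with CsA, 1416 with BH4, 1716 with ABH4 and 1464 with NIL, 2.0-fold higher without treatment. Rrm2, the subunit of ribonucleotide reductase whose level follows S phase, had 106, 383, 152, 309, 426 and 340 in the same order. It stood 3.62-fold above the syngraft, the largest difference among the members, and its other 2 probe sets also differed by 1.24 and 1.43 on the log2 scale. Rrm1, the partner subunit whose level varies less over the cycle, had 271, 309, 271, 255, 317 and 305, a span of 1.25-fold over all 6 arrays. Tk1 had 117, 128, 117, 154, 178 and 153, which puts the untreated allograft 1.1-fold above the syngraft. Tyms was at the floor on all 6 arrays with each of its 3 probe sets, so these arrays give only an upper limit for it. The nucleotide enzymes thus did not move alike, with Rrm2 far above Rrm1 and Tk1 in the size of its difference.

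**Figure D2:**
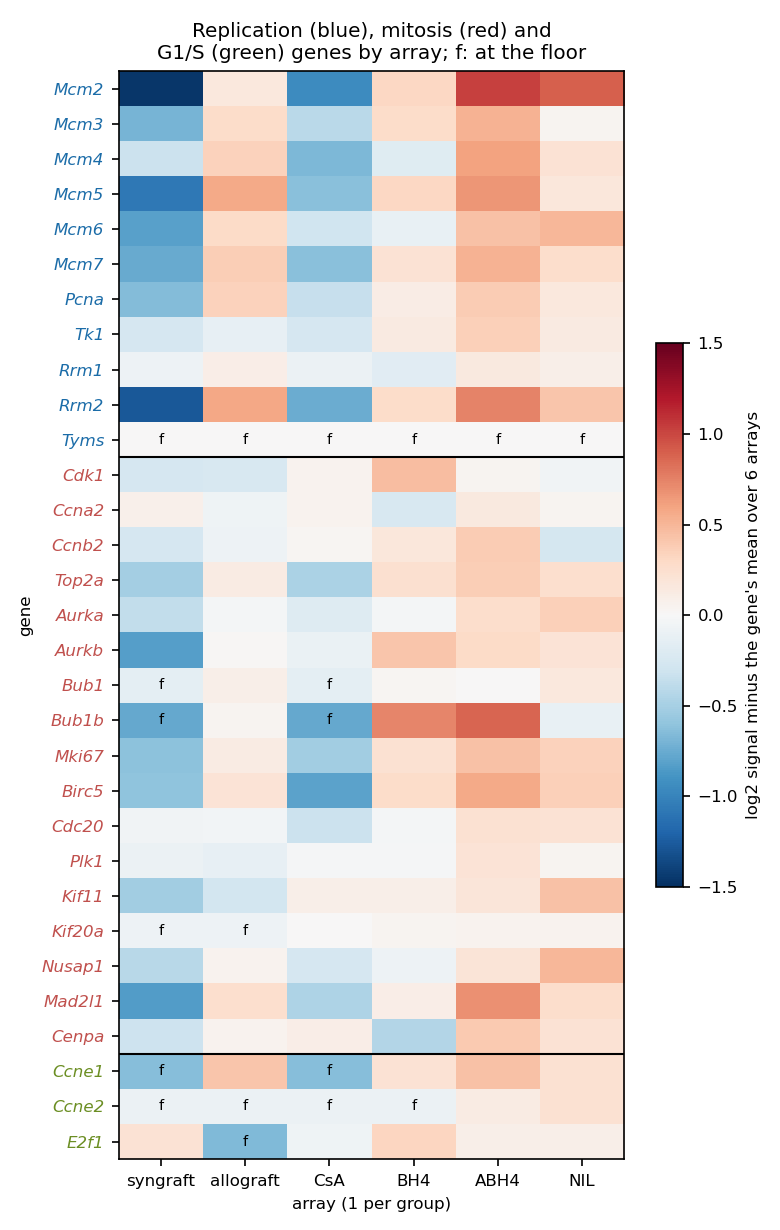
Log2 signal of 31 genes on 6 arrays, minus each gene's own mean over the arrays; rows are genes, columns arrays (1 per group), and f marks a value at the floor. Replication genes (blue names) are mostly below their means in the syngraft (median -0.70) and with CsA (median -0.41) and above them with ABH4 (median 0.52), and mitosis genes (red names) have medians closer to 0 (-0.37, -0.14 and 0.27).

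Among mitosis genes the difference between untreated allograft and syngraft was spread widely. Mad2l1, which encodes the spindle checkpoint protein MAD2, had signals of 93.0 in the syngraft, 197 in the untreated allograft, 120 with CsA, 177 with BH4, 266 with ABH4 and 198 with NIL, and was 2.12-fold higher without treatment. Aurkb, the kinase of the chromosomal passenger complex, had 58.5, 105, 96.9, 139, 127 and 120 in the same order, 1.80-fold higher. Birc5, which encodes survivin of the same complex, had 119, 208, 103, 218, 268 and 231, 1.75-fold higher. Both members of the complex were lowest in the syngraft or with CsA. The other Aurkb probe set was at the floor in the syngraft, the untreated allograft and with CsA. Aurkb differences among these arrays therefore rest on the brightest probe set. Mki67, the proliferation marker Ki-67, had 167, 280, 180, 302, 349 and 326, 1.67-fold higher. Top2a, the topoisomerase that untangles chromosomes before they part, had 202, 313, 207, 341, 372 and 344, 1.54-fold higher. For Mki67 and Top2a the syngraft and CsA signals were nearly equal and the other 4 arrays were higher. Neither gene reached 1.5-fold between untreated allograft and syngraft on the deposited values or after quantile normalization. Bub1b, which encodes the checkpoint kinase BUBR1, was at the floor in the syngraft and with CsA, with 60.7 in the untreated allograft, 97.8 with BH4, 108 with ABH4 and 54.8 with NIL. It was at least 1.74-fold higher without treatment than in the syngraft.

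The central mitotic kinase and its cyclins were close to the syngraft in the untreated allograft. Cdk1 had signals of 137 in the syngraft, 138 in the untreated allograft, 170 with CsA, 227 with BH4, 168 with ABH4 and 158 with NIL. Cyclin B2 (Ccnb2) had 115, 130, 140, 154, 178 and 114 in the same order. Cyclin A2 (Ccna2) had 231, 210, 228, 186, 244 and 227 on its brightest probe set, 1.1-fold lower without treatment than in the syngraft. Its other probe set, with 166, 278, 218, 246, 255 and 156, was 0.74 higher on the log2 scale, so the direction for Ccna2 depended on the probe set. Cdc20, the activator of the anaphase-promoting complex, had 239, 240.5, 198, 243, 289 and 288. Another Cdc20 probe set had 106 in the syngraft and 171 in the untreated allograft, 0.69 higher on the log2 scale. Plk1, the polo-like kinase, had 102, 99.5, 107, 107, 125 and 112, a span of 1.25-fold.

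The remaining mitosis genes had small differences or low signals. Aurka, the spindle pole kinase, had signals of 92.0 in the syngraft and 116 in the untreated allograft, and was highest with NIL at 153. Nusap1, a spindle microtubule protein, had 97.7, 136, 109, 124, 150 and 184 in the order used above, 1.39-fold higher without treatment than in the syngraft. Cenpa, the histone H3 variant of centromeres, had 138, 177, 182, 125.5, 225 and 198. Kif11, the motor that separates spindle poles, had 49.7, 58.8, 75.8, 75.5, 80.7 and 96.2, and its 3 probe sets did not share an order. Bub1, a checkpoint kinase, was at the floor in the syngraft and with CsA and lay between 38.7 and 42.7 elsewhere. Kif20a, a motor of cytokinesis, was at the floor in the syngraft and the untreated allograft and at most 38.1 elsewhere, so neither gene carries a usable difference.

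The 3 regulators of S phase entry did not move together. Ccne1 (cyclin E1) was at the floor in the syngraft and with CsA, and had 72.2 in the untreated allograft, 63.3 with BH4, 73.5 with ABH4 and 63.4 with NIL, at least 2.08-fold higher without treatment than in the syngraft. Ccne2 was above the floor with ABH4 (40.5) and NIL (43.4) alone. E2f1, the activator that drives S phase genes, was at the floor in the untreated allograft and had 64.2 in the syngraft, 52.8 with CsA, 69.0 with BH4, 58.6 with ABH4 and 58.4 with NIL. It was the 1 member at least 1.5-fold lower in the untreated allograft than in the syngraft (at least 1.85-fold), although the count was 0 once the floor was raised to the 50th percentile. The other E2f1 probe set was above the floor in the syngraft alone (45.4), so E2f1 differences between allografts rest on 1 probe set.

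**Figure D3:**
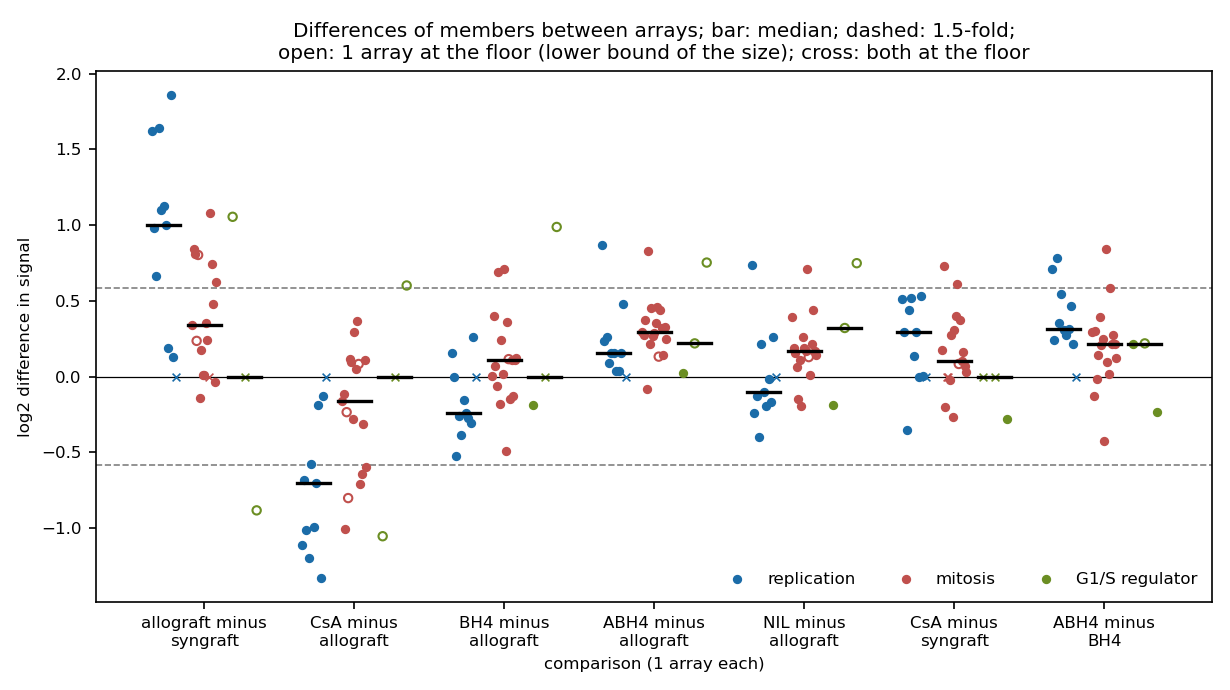
Log2 difference in signal of each replication (blue), mitosis (red) and S phase entry (green) gene in 7 comparisons of 1 array with another; black bars are medians, dashed lines mark 1.5-fold, open points have 1 array at the floor and crosses have both. In the allograft minus syngraft the replication median is 1.0 and the mitosis median 0.34, and in CsA minus allograft they are -0.70 and -0.16.

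With CsA the replication genes were lower than in the untreated allograft, by a median of -0.70 against 0.00 for all genes, with 7 of 11 at least 1.5-fold lower and 0 higher. Mitosis genes had a median of -0.16, which was 0.02 on the deposited values, with 5 of 17 lower and 0 higher. Over all 31 members 13 were lower and 1 higher, where 12.2% of all genes were lower and 9.31% higher. On the deposited values, in which the array medians differed by 0.19, 8 members were lower, and 9 after quantile normalization. Rrm2 was 2.51-fold, Mcm5 2.30-fold, Mcm2 2.16-fold, Mcm4 2.02-fold and Birc5 2.01-fold lower. The second Mcm2 probe set differed by -0.02 on the log2 scale. The 1 higher member was E2f1, by at least 1.52-fold. Replication genes lay lower relative to mitosis genes here, with a difference of medians of -0.54. This value and the 0.66 for allograft against syngraft share the untreated allograft array and are not independent.

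Against the syngraft, the CsA allograft had a median of 0.29 for replication genes and 0.10 for mitosis genes. Of the 31 members 2 were at least 1.5-fold higher, Aurkb (1.66-fold) and Kif11 (1.53-fold), and 0 were lower, where 6.83% of all genes were higher and 5.84% lower. No replication gene reached 1.5-fold; Rrm2 came nearest at 1.44-fold. Of the 30 members above the floor on any array, 16 had their lowest signal in the syngraft, against 23.8% of all 10560 such genes. Among the 5 allografts 20 of 30 members were lowest with CsA, 9 of 10 replication and 10 of 17 mitosis genes. Of the same 10560 genes 31.1% were lowest with CsA.

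BH4, ABH4 and NIL are each compared with the same untreated array, as the syngraft and CsA were above. All these values share that array and are set side by side only. With BH4 the replication median was -0.24 and the mitosis median 0.11 relative to the untreated allograft. No replication gene reached 1.5-fold. Of the 31 members 3 were higher (E2f1 by at least 1.98-fold, Cdk1 by 1.64-fold and Bub1b by 1.61-fold) and 0 lower, where 4.90% of all genes were higher and 3.35% lower. Mcm4 and Cenpa lay furthest below, by -0.52 and -0.49 on the log2 scale. With NIL the replication median was -0.10 (0.02 without the rescaling, 0.01 with quantile normalization) and the mitosis median 0.17. Mcm2 (1.67-fold), Kif11 (1.64-fold) and E2f1 (at least 1.68-fold) were higher and 0 members lower, where 6.37% of all genes were higher and 5.33% lower. The other Mcm2 probe set had -0.09 with NIL and the other 2 Kif11 probe sets -0.24 and -0.03, so those directions rest on 1 probe set each.

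With ABH4 the members were shifted upwards by small amounts. The replication median was 0.16 and the mitosis median 0.30 relative to the untreated allograft, and 29 of 31 members differed upwards by any amount, with Bub1 below at -0.08 and Tyms at the floor. The 29 include Kif20a, Ccne2 and E2f1, which were at the floor in the untreated allograft and so could not differ downwards. Of all 12393 genes 4106 differed upwards, 5423 downwards and 2862 were at the floor on both arrays. At least 1.5-fold higher were 3 members, Mcm2 (1.82-fold), Bub1b (1.78-fold) and E2f1 (at least 1.68-fold), and 0 were lower, where 3.22% of all genes were higher and 2.49% lower. The other Mcm2 probe set differed by 0.40 on the log2 scale, short of 1.5-fold. ABH4 held the highest signal of the 6 arrays for 21 of 30 members, 9 of 10 replication and 11 of 17 mitosis genes. It did so for 13.5% of the 10560 genes above the floor on any array. The count of 21 became 17 without the rescaling and 16 with quantile normalization. Over all member probe sets above the floor it was 30 of 49. No share over all genes or probe sets is given for these settings, so these further counts lack a background.

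ABH4 and BH4, which differ by the amino group at position 4 of the pteridine that the labels name, were given at the same dose and interval. Replication genes were higher with ABH4 by a median of 0.32 and mitosis genes by 0.21, and 26 of 31 members differed upwards, against 4394 of all 12393 genes. At least 1.5-fold higher with ABH4 were Cenpa (1.79-fold), Mcm4 (1.72-fold), Mcm2 (1.64-fold) and Mad2l1 (1.5-fold), and 0 members were lower, where 3.24% of all genes were higher and 4.11% lower. The other Mcm2 probe set differed by 0.04 on the log2 scale and the other Mcm4 probe set by 0.47. Cdk1 differed most in the other direction, by -0.43 on the log2 scale. With 1 array each, no interval for these differences can be given.

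**Figure D4:**
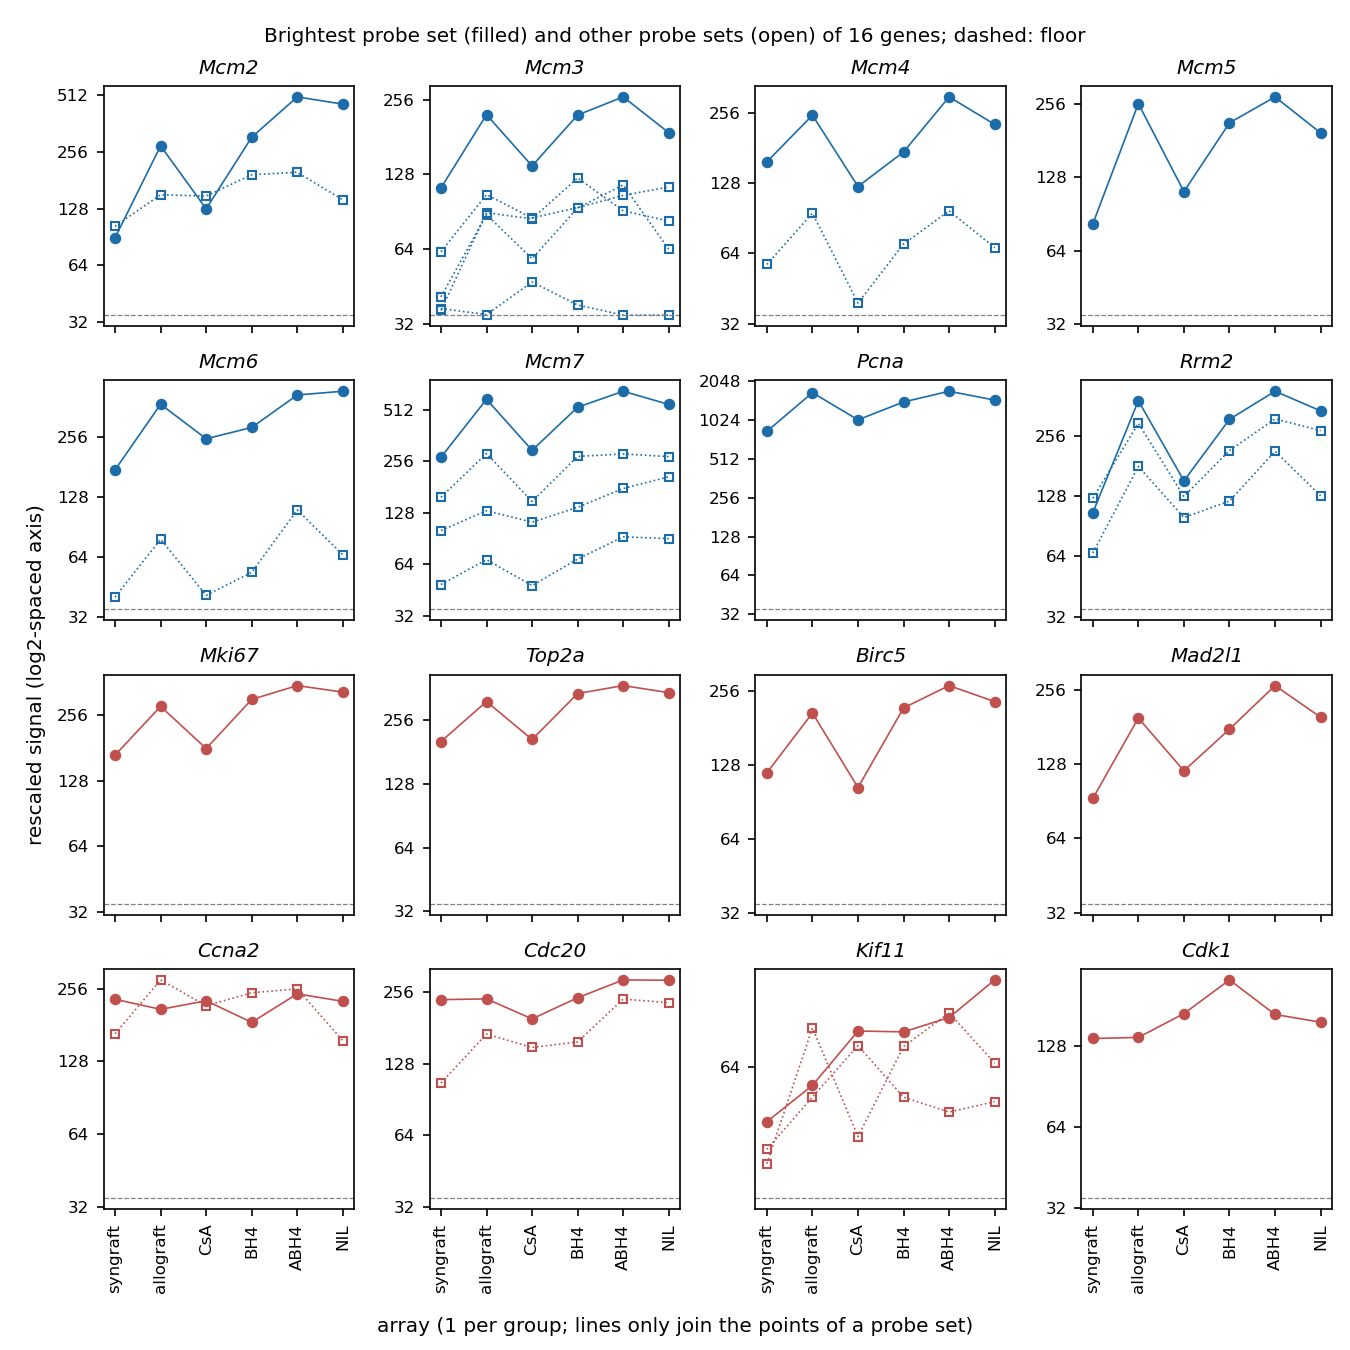
Rescaled signal of the brightest probe set (filled) and the other probe sets above the floor on at least 1 array (open) of 8 replication genes (blue) and 8 mitosis genes (red) on 6 arrays, on a log2-spaced axis with the floor dashed. The 3 Rrm2 probe sets are all lowest in the syngraft and next lowest with CsA, while those of Ccna2 and Kif11 cross.

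Probe sets other than the brightest gave the same sign for untreated allograft against syngraft in 16 of 18 cases, the exceptions being in Ccna2 and Mcm3. For CsA against the untreated allograft it was 14 of 17, with exceptions in Ccna2, Kif11 and Mcm3. Against the untreated allograft it was 12 of 17 for ABH4, 10 of 18 for BH4 and 9 of 18 for NIL. For CsA against the syngraft it was 13 of 18, and for ABH4 against BH4 it was 15 of 18.

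Wider lists of cell cycle genes were described in the same way. In the untreated allograft 15 of 29 further replication genes were higher by 1.5-fold or more and 0 lower (median 0.63), and with CsA 13 were lower and 0 higher (median -0.46) than without. Of all genes 15.4% were higher and 11.9% lower in the untreated allograft than in the syngraft. Fen1, the nuclease that trims Okazaki fragments, had signals of 37.8 in the syngraft, 376 in the untreated allograft, 129 with CsA, 384 with BH4, 495 with ABH4 and 474 with NIL, 9.93-fold higher without treatment than in the syngraft. Dck, deoxycytidine kinase of the salvage pathway, was 3.17-fold higher, and Pola2, a subunit of polymerase alpha, was 2.36-fold lower with CsA than without. The syngraft signals of Fen1 and Dck (43.9) lay near the floor of 34.8, so the sizes of their folds are uncertain. Of 43 further mitosis genes 11 were higher and 2 lower in the allograft (median 0.11). With CsA 5 of the 43 were lower and 3 higher (median -0.11), no larger a share than the 12.2% and 9.31% of all genes given above. Pttg1, which encodes securin, had 526 in the syngraft, 1773 in the untreated allograft and 798 with CsA, and Cep55, a protein of the final cut between daughter cells, was 2.73-fold higher without treatment than in the syngraft. Pbk, a mitotic kinase, was 1.65-fold lower. Incenp was 2.14-fold lower with CsA on its brightest probe set, with the other 2 of opposite sign, while Anln (1.85-fold) and Spc25 (1.79-fold) were higher.

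Of 17 G1 cyclins, kinases and pocket proteins 7 were higher and 0 lower in the untreated allograft (median 0.40), where 15.4% of all genes were higher and 11.9% lower. The 7 included Myc, the growth-promoting transcription factor (3.36-fold), and Rbl1, the pocket protein p107 (2.43-fold). With CsA 1 of the 17 was higher than without treatment, Mycn (1.85-fold), and 2 were lower, Rb1 (1.73-fold) and Cdk7 (1.54-fold). Of all genes 9.31% were higher and 12.2% lower with CsA. Of 16 cell cycle inhibitors 6 were higher and 1 lower in the untreated allograft (median 0.22). Among the same 16, with CsA 3 were higher and 5 lower than without treatment (median -0.21). Cdkn1a, the inhibitor p21, had signals of 323 in the syngraft, 1414 in the untreated allograft, 578 with CsA, 1314 with BH4, 1221 with ABH4 and 1274 with NIL. The inhibitor was thus 4.37-fold higher without treatment than in the syngraft, on the arrays where the replication genes were also high. Gadd45b was 2.70-fold higher, with 1 of its 3 probe sets of opposite sign. With CsA Pkmyt1, a kinase that restrains Cdk1, was 2.26-fold lower, while Wee1 (1.90-fold), which also restrains it, and Cdkn2c (1.5-fold) were higher than without.

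Summed signals of cell type markers are given beside these differences. The summed signal of 13 cytotoxic lymphocyte markers was 630.1 in the syngraft, 8582 in the untreated allograft, 1314 with CsA, 6108 with BH4, 8873 with ABH4 and 8082 with NIL. That of 14 T cell markers was 865, 2924, 830.3, 2489, 3266 and 3276 in the same order, and that of 17 macrophage and monocyte markers was 15290, 24115, 17062, 28463, 26811 and 26818. In the syngraft T cell sum 10 genes were at the floor, and Zap70 had 334, against 264 in the untreated allograft. Gzmb, with 3888, was the largest part of the cytotoxic sum of the untreated allograft. Cytotoxic and T cell sums were low in the syngraft and with CsA, the arrays on which the helicase subunits were also low. B cell and plasma cell markers (8 genes) summed to 966, 1014, 1864, 1042, 2327 and 2265 and did not follow this order. Of these 8 genes 7 were below the syngraft in the untreated allograft (median -0.38), and 6 were higher with CsA than without (median 0.23). Fibroblast markers (12 genes) summed to 34650, 11339, 31224, 25568, 16087 and 10157, highest in the syngraft and with CsA, followed by BH4. The 11 endothelial markers, with 3301, 2267, 2843, 2322, 2236 and 2467, were also highest in the syngraft and with CsA. The 14 cardiomyocyte markers summed to 76936, 67942, 71289, 65815, 57137 and 59756, lowest with ABH4. The part of these cell types in the differences of replication and mitosis genes was not tested.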

How the data were processed

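Total RNA of 6 mouse cardiac grafts, 1 array per group, was analysed from the authors' deposited signal intensity of 22690 probe sets per array. These values were linear, and every array's mean after trimming 2% from each end was 200.1, so the authors had already scaled them; which software, summary and background steps they used is not given in the sources used here. Each array was rescaled to the mean of the 6 medians over 22626 probe sets other than controls (log2 shifts of -0.09 to 0.10), floored at the 30th percentile of all values (34.8) and log2 transformed. Genes took their brightest single-gene probe set by GEO's platform annotation; 691 probe sets listed for several genes and 1555 without a gene were left out. Precision is limited by the number of arrays: no variance, test or p-value was possible. The members and gene lists were chosen with earlier results of these data known. Named were all members and, of each other cell cycle list, up to 2 genes furthest in each direction for allograft against syngraft and CsA against allograft, at least 1.5-fold and above the floor on both arrays. All 225 list genes with a probe set matched RefSeq by gene ID with the same symbol. The functions were tested on simulated data with Python 3.11.15, pandas 2.3.3 and numpy 2.4.6. Alternatives were the deposited values, quantile normalization, floors at the 10th and 50th percentiles, the mean over probe sets, a filter on genes at the floor, and the S phase regulators counted with mitosis genes.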

Additional observations from a re-analysis of the deposited data

How the results depend on the processing

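The medians of all members, of replication genes and of mitosis genes, and the difference between the groups, moved by at most 0.25 on the log2 scale in all 7 comparisons under all 7 alternatives, a limit set for this work since no replicate gives a spread. The replication minus mitosis difference for untreated allograft against syngraft ranged from 0.50 (mean over probe sets) to 0.82 (floor at the 50th percentile). Counts of members at least 1.5-fold apart moved more. For CsA against the untreated allograft, 8 were lower on the deposited values, and higher were 2 under the floor at the 10th percentile and 0 under that at the 50th percentile, after quantile normalization and with the mean over probe sets. With a floor at the 10th percentile 1 member was lower with BH4 and 1 with ABH4 than without treatment, and for CsA against the syngraft 4 were higher and 1 lower. Under that floor 8.99%, 7.72%, 12.7% and 11.7% of all genes passed in these 4 counts, so the members' shares are near or below the background. With a floor at the 50th percentile 0 were lower in the untreated allograft than in the syngraft, 1 each was higher with BH4, ABH4 and NIL, and 0 for CsA against the syngraft. Of all genes 5.82%, 2.19%, 1.19%, 1.40% and 3.46% passed in these counts in the same order. The mean over probe sets gave 0 higher with NIL and 0 for CsA against the syngraft, where 4.62% and 5.32% of all genes were. Of 1504 values of single members under the alternatives, 1434 moved by at most 0.25, 70 moved more and 0 differences of at least 1.5-fold changed sign. Counting all genes without the rescaling, the allograft had 1355 above and 2128 below the syngraft by 1.5-fold or more, against 1911 and 1472 with it; for CsA against the untreated allograft it was 1715 and 917 against 1154 and 1516, for ABH4 467 and 220 against 399 and 309, and for NIL 1182 and 348 against 790 and 661. After quantile normalization the split for CsA was 1275 and 1083. No paired analysis was possible because each group has 1 array. Ranks of arrays were added as a result after seeing the data. Low signals limit Tyms, Bub1, Kif20a and Ccne2 most.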
